A study of Mus musculus with 16 samples.

Results

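The miRNAs of the imprinted Dlk1-Dio3 locus were followed through 8 sorted myeloid populations of the mouse. A member was any mouse miRNA present on both array designs used, star forms included, with a probe that the array files place on chromosome 12 between 110500000 and 111500000 of the mm9 build. This gave 77 members among 604 mouse miRNAs shared by the designs, from 53 hairpins, 24 of which were represented by both arms, and 13 members were star forms, the older name for the less abundant strand of a hairpin. Their probes ran from chr12:110782806 to chr12:110981994. All 77 had the same probe sequences on both designs, with 20 spots each, spread over 1 to 4 probes.

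The arrays were hybridised with RNA of unmanipulated cells from female C57Bl/6 mice aged 6 weeks, with no transgene, deletion or treatment named in the labels. Cells were taken from bone marrow of femur and tibia as MP (CD117+, CD135+, CD115-, a name that the labels do not spell out), MDP (CD117+, CD135+, CD115+), CDP (CD117 low, CD135+, CD115+), Gr1+ monocytes (CD11b+, CD115+) and PDC (B220+, CD11c intermediate, SiglecH+, CD317+), and from spleen as CD4+ DC, CD8+ DC and CD4-CD8- DC (all CD11c+, CD3-). MDP and CDP are the usual short names of progenitors that feed the dendritic cell (DC) lineage, and PDC stands for plasmacytoid DC. Each sample was a pool of animals: 15 for the progenitors, 5 for Gr1+ monocytes and PDC, 8 for the spleen DC. There were 2 biological replicates per population; the first replicates were all run on array design 1 and the second ones on design 2. Replicate, design, slide and scan were therefore the same split of the 16 arrays, and within a population they cannot be told apart.

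The Dlk1-Dio3 region is one of the large imprinted domains of the mammalian genome. Its protein-coding genes Dlk1, Rtl1 and Dio3 are expressed from the paternal chromosome, and its noncoding RNAs Meg3, the transcripts antisense to Rtl1, Rian and Mirg from the maternal one. The miRNAs are processed from those maternal transcripts and are known mainly from embryonic tissue, placenta, brain and stem cells. In blood formation the locus has been studied chiefly in long-term haematopoietic stem cells, which were not among the sorted populations. A miRNA acts mainly through its seed, bases 2 to 8, which pairs with target messenger RNAs.

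The mature sequences on which the results turn were taken from the RefSeq miRNA annotation of GRCm38.p6, which matched 71 of the 77 members by name and probe. They are written 5′ to 3′ with the seed in capitals. The first 4 are the members detected on any array. The next had the highest median signal among the undetected members, the next 2 are well-known members of the anti-Rtl1 and Mirg stretches that were not detected, and the last 2 are the only matched members that share a seed.
miR-1906: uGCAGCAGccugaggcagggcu
miR-370: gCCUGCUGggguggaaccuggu
miR-494: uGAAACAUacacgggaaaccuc
miR-668: uGUCACUCggcucggcccacuacc
miR-409-3p: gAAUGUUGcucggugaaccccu
miR-127: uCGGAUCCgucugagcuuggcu
miR-410: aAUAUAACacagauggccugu
miR-376c*: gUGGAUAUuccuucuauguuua
miR-376b*: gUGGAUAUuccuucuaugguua
The 71 matched members carried 70 different seeds, so the locus is not a family of seed copies. None of the 4 detected members shared its seed with another member or with another mouse miRNA of the RefSeq table. The array probes of the detected members bind the 3′ part of the miRNA. The longest probe covered bases 9 to 22 of miR-1906, bases 8 to 22 of miR-370 and of miR-494, and bases 12 to 24 of miR-668, so nearly all of each seed lies outside what the probes read.

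Most of the locus gave no signal in any population. A miRNA was counted as detected on an array when, for any of its probes, the share of spots marked well above background reached 0.5. By that count 4 of 77 members (5.19%) were detected on at least 1 array, against 207 of the 527 other mouse miRNAs (39.3%). On all 16 arrays, 2 members (2.6%) were detected, against 86 other miRNAs (16.3%). The 4 were miR-1906, miR-370, miR-494 and miR-668. Any single array detected 2 to 4 members, and 113 to 170 of the others (21.4% to 32.3%). The arrays measure pooled RNA, so fewer cells that carry a miRNA and less of it per cell cannot be told apart.

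**Figure D1:**
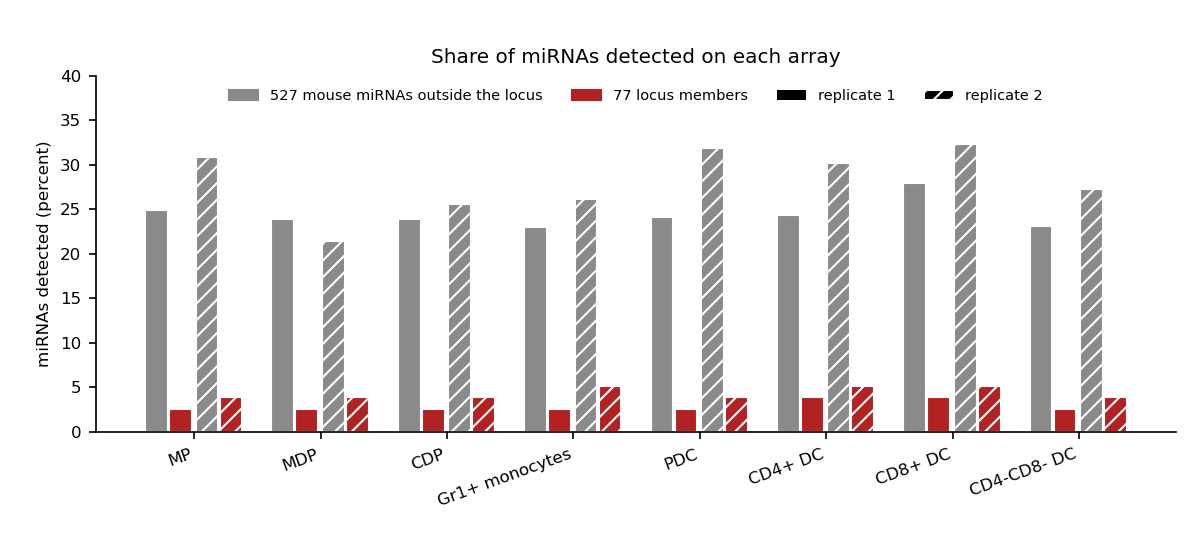
Percent of miRNAs detected on each of the 16 arrays, for the 77 locus members (red) and the 527 mouse miRNAs outside the locus (grey), by population and replicate (hatched bars, replicate 2). The red bars lie between 2.6% and 5.19% in every population, the grey bars between 21.4% and 32.3%.

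The count was nearly the same at every stage. In each of the 8 populations, miR-1906 and miR-494 were detected on both arrays. In CD4+ DC and CD8+ DC, miR-370 was detected on both as well, so that 3 members (3.9%) were found there, beside 126 and 144 other miRNAs. MP, the population with the highest summed signal of stem and early progenitor miRNAs, had 2 members (2.6%) beside 124 others (23.5%). On design 1 alone 3 members were detected and on design 2 alone 4, the difference being miR-668.

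The 73 members detected on no array, called dark here, gave signals around or below those of the negative control spots. Over all arrays, 5 of their 22664 spots were well above background (0.0221%), against 5 of 6705 negative control spots (0.0746%). The median processed signal of a dark member over the 16 arrays ran from -4.76 to 3.38 with a median of -1.5, and 56 of the 73 (76.7%) had a median below 0. The 320 dark miRNAs outside the locus had a median of -1.62, with 76.6% below 0. Both sets were chosen for lack of detection, so their low level is a description only. For scale, the median negative control spot was at 3 to 5.63 on the different arrays, with 0 to 5 of the 73 members above it, and the dimmest probe called detected was at 11.8 to 20.7. The highest signal of any dark member was 9.39, for miR-341 in PDC replicate 1, which was -0.238 in PDC replicate 2. These values set a limit of what the arrays could show; they do not show absence of the miRNA.

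**Figure D2:**
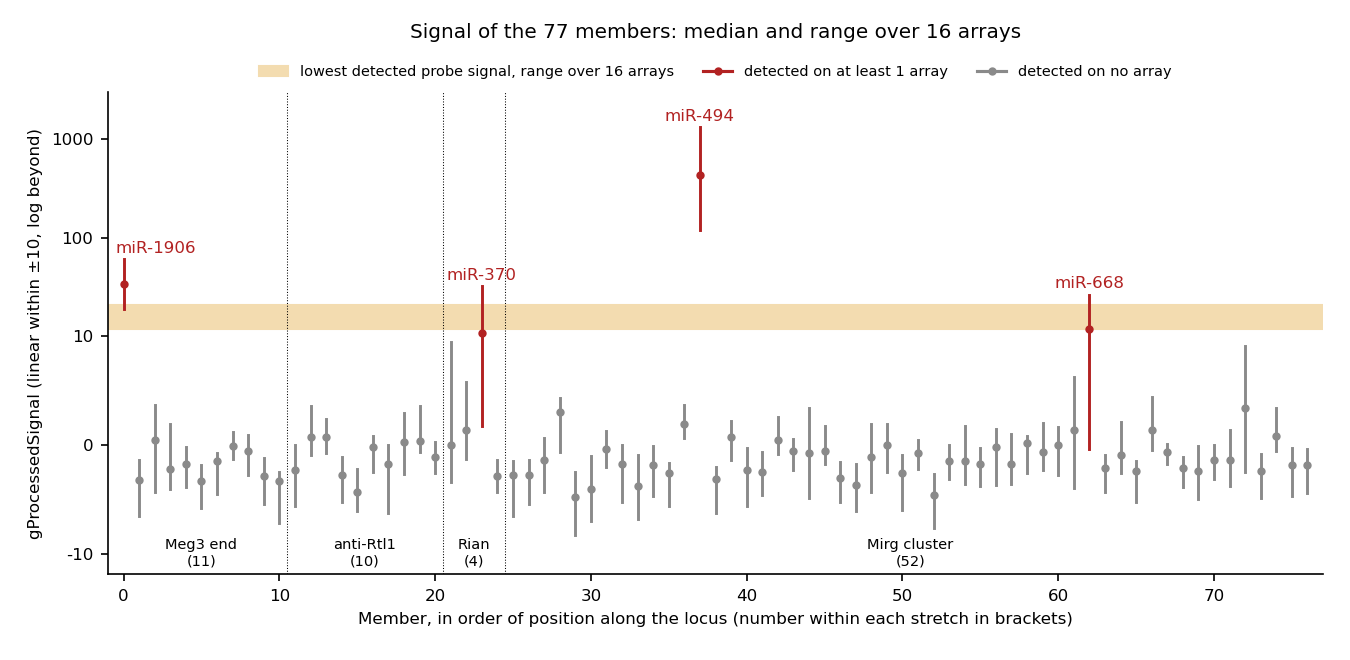
Processed signal of each of the 77 members in the order of their positions along the locus, with the median (point) and the range over 16 arrays (line); the axis is linear within ±10 and logarithmic beyond. The 4 detected members (red) come from 3 of the 4 stretches, and no grey line reaches the band of the lowest detected probe signals, 11.8 to 20.7.

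Along the chromosome, the detected members did not form a block. The stretch at the Meg3 end (chr12:110782806-110824597) held 11 members, of which miR-1906, the first in order, was detected. The other 10, which were miR-770-5p, miR-770-3p, miR-673-5p, miR-673-3p, miR-493, miR-337-5p, miR-337-3p, miR-540-5p, miR-540-3p and miR-665, stayed between -7.14 and 3.68. In the RefSeq annotation, miR-1906 and both arms of miR-770 overlap Meg3, the maternally expressed noncoding RNA, and the other 8 members overlap the span of Rtl1.

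The anti-Rtl1 stretch (chr12:110828676-110833597) held 10 members, and 0 were detected. The stretches were set by miRNA name and position, and the RefSeq span of Rtl1 covers 18 members, these 10 and 8 of the Meg3 end. Rtl1 is a retrotransposon-derived gene needed in the placenta, and miRNAs of this stretch are known to be transcribed antisense to it. The 10 were miR-431, miR-431*, miR-433, miR-433*, miR-127, miR-127*, miR-434-5p, miR-434-3p, miR-136 and miR-136*, with signals of -6.27 to 3.6. The best known of them, miR-127, reached 0.818 at the highest, in CD4+ DC replicate 2, and was -0.7 and 0.31 in MP.

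The Rian stretch (chr12:110849773-110920438) held 4 members, of which miR-882 does not overlap Rian in the RefSeq annotation. There miR-370 was detected, while miR-341, miR-1188 and miR-882 stayed between -4.34 and 9.39. Of these, miR-1188, picked after its values were seen, had its highest values, 5.77 in MP and 5.37 in CDP, both in replicate 1. In replicate 2 the same populations gave 0.774 and -1.23.

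The Mirg cluster (chr12:110947281-110981994) was the largest stretch, with 52 members of 37 hairpins. In the RefSeq annotation 11 matched members overlap Mirg itself, and miR-494 and miR-668 are not among them. Of the cluster, miR-494 and miR-668 were detected. The other 50 had signals between -8.26 and 9.05. Their medians ran from -4.76 to 3.38, and 39 of the 50 were below 0. They comprised miR-379, miR-411, miR-411*, miR-299, miR-299*, miR-380-5p, miR-380-3p, miR-1197, miR-323-5p, miR-323-3p, miR-758, miR-329, miR-679, miR-1193, miR-666-5p, miR-666-3p, miR-543, miR-495, miR-667, the miR-376 and miR-654 groups, miR-300, miR-300*, miR-381, miR-487b, miR-539, miR-544, miR-382, miR-382*, miR-134, miR-485, miR-485*, miR-453, miR-154, miR-154*, miR-496, miR-377, miR-541, miR-409-5p, miR-409-3p, miR-412, miR-369-5p, miR-369-3p and miR-410. With the highest medians of all dark members stood miR-409-3p, miR-299* and miR-329. miR-299* had signals of -0.602 to 4.29 with a median of 3.01, and miR-329 of 0.675 to 3.65 with a median of 1.95. Both stayed below the 95th percentile of the negative control spots, 7.44 to 11.8 on the different arrays. miR-410, at the distal end of the cluster, was below 0 on all 16 arrays, from -4.39 to -0.355. miR-134, known from dendrites of neurons and picked after its values were seen, reached 5.33 and 6.19 in CD8+ DC and was below those values on every other array. Both values lay within the range of the negative control spots. Their median was 5.63 in CD8+ DC replicate 1, and their 95th percentile was 7.8 in replicate 2.

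What the rule did not use showed little that set the detected members apart by position. A detected member could lie directly between dark ones: miR-494 lies at chr12:110953585-110953598, and the next members on either side, miR-329 (chr12:110951754-110951772) and miR-679 (chr12:110953803-110953818), were dark. All 13 star forms were dark. By base composition, the 4 detected mature miRNAs held 68.2% (miR-1906), 68.2% (miR-370), 45.5% (miR-494) and 66.7% (miR-668) G and C, beside a median of 47.6% in the 67 dark members with a sequence. Of those 67 dark members, 12 were at 60% or more, among them miR-770-3p at 72.7%. Whether base composition bears on detection was not tested.

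miR-1906 was the only member whose signal was above background everywhere and repeated between replicates. It lies at chr12:110782806-110782819, inside Meg3. The files place its probes on chromosome X as well, and RefSeq lists 2 loci with this mature sequence, so its signal cannot be assigned to the imprinted copy. In the progenitors the processed signals of replicates 1 and 2 were 21.7 and 32.3 in MP, 21.6 and 20.8 in MDP, and 21.0 and 26.9 in CDP. In the other bone marrow populations they were 35.3 and 30.6 in Gr1+ monocytes, and 18.9 and 38.7 in PDC. In spleen they were 54.5 and 56.9 in CD4+ DC, 43.9 and 60 in CD8+ DC, and 36.8 and 50.1 in CD4-CD8- DC. Before any scaling between arrays, the 6 spleen arrays were all above the 6 progenitor arrays, without overlap, and PDC replicate 1 was the lowest of the 16. How many other miRNAs part the spleen and progenitor arrays in this way was not counted, so the split is not shown to be special to miR-1906.

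For the tests, signals were expressed relative to the 75th percentile of 88 miRNAs (those found on every array), values under a floor were raised to it, and a linear model (limma) with the array design as a block was fitted to the 175 miRNAs that some population showed on both of its arrays. Only 3 of the 77 members (3.9%) met that filter, against 172 of the 527 others (32.6%). In the moderated F test over the 8 populations 2 of these 3, miR-1906 and miR-370, were called at an adjusted p under 0.05, beside 73.1% of all 175 tested miRNAs. A share of 2 in 3 is near that background, and miR-370 met the filter only through populations in which it was high.

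On the scaled log2 level, miR-1906 averaged -4.18 ± 0.20 in MP, -4.20 ± 0.28 in MDP, -4.46 ± 0.19 in CDP, -3.93 ± 0.06 in Gr1+ monocytes, -4.55 ± 0.07 in PDC, -3.68 ± 0.20 in CD4+ DC, -3.68 ± 0.31 in CD4-CD8- DC and -3.06 ± 0.14 in CD8+ DC (SD, n = 2 arrays each). Ordered by level, PDC, CDP, MDP and MP came lowest, and each of these differed from the next by no more than the larger SD of the pair. These SDs include the offset between the designs, which the fit takes out. CDP minus MDP was -0.19 within design 1 and -0.32 within design 2, and was not called (adjusted p = 0.382, limma). CD4+ DC and CD4-CD8- DC had the same mean. The F test gave an adjusted p of 7.17e-05 (limma).

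In the contrast of the 5 differentiated with the 3 progenitor populations, miR-1906 was higher in the former by a log2 difference of 0.50 ± 0.06 (SE). The adjusted p was 0.000101 (limma), and the difference was 0.57 within design 1 and 0.44 within design 2. Of all tested miRNAs, 63.4% were called here, 38.9% as higher, with a median difference of 0.14. Among all 7 contrasts it differed most between spleen DC and CDP, by 0.98 ± 0.10 (SE, adjusted p = 3.25e-05 with limma), where 56% of all tested miRNAs were called, 36.6% as higher, and the median was 0.26. With each array scaled to the 75th percentile over all mouse miRNAs, detected or not, this difference was 0.27 (adjusted p = 0.179, limma). After normexp background correction, run with an added offset of 50, it was 0.30 with an adjusted p of 0.828 (limma). The contrast of differentiated and progenitor populations was 0.28 (adjusted p = 0.0338, limma) and 0.23 (adjusted p = 0.518, limma) under the same alternatives. In both contrasts the progenitors came from bone marrow and the spleen DC lay on the other side, so organ and differentiation cannot be told apart. Within marrow, miR-1906 differed by 0.28 between Gr1+ monocytes and MDP (adjusted p = 0.124, limma). Between PDC and CDP it differed by -0.09 (adjusted p = 0.714, limma).

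Within spleen, CD8+ DC stood above the mean of the other 2 populations by 0.62 ± 0.11 (SE, adjusted p = 0.00256 with limma), where 33.1% of all tested miRNAs were called, 25.7% as higher. This contrast turned on the scaling. The unscaled signals of CD8+ DC, 43.9 and 60, lay within those of CD4+ DC and CD4-CD8- DC, and the difference was -0.12 when scaled to all miRNAs and 0.13 after quantile normalization, called in neither. No direction for miR-1906 within the spleen is therefore given. No member was called between MP and MDP, where 10.3% of all tested miRNAs were, or between MDP and CDP (0%). The same held for Gr1+ monocytes, set against MDP (37.7%), and for PDC, set against CDP (37.7%).

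**Figure D3:**
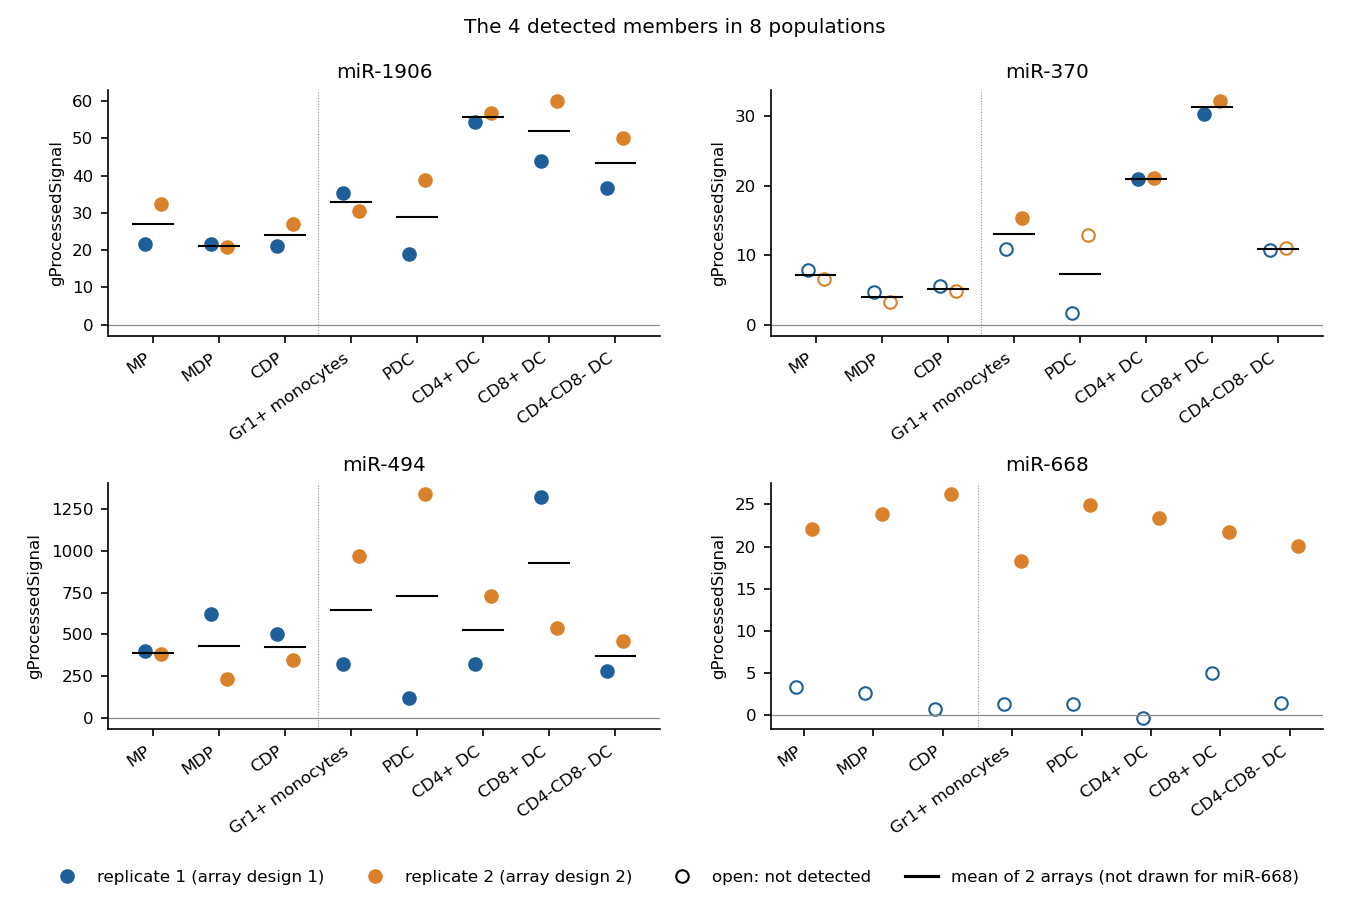
Processed signal of the 4 detected members in the 8 populations, replicate 1 on array design 1 (blue) and replicate 2 on design 2 (orange). Symbols are open where the miRNA was not detected, and a black line marks the mean of both arrays, except for miR-668. miR-370 is highest in CD8+ DC (30.4 and 32.2), the replicates of miR-494 part widely in PDC (118 and 1340), and miR-668 is detected on design 2 alone.

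miR-370 was detected on 5 arrays, 4 of them of CD4+ DC and CD8+ DC. It lies at chr12:110856523-110856536 within Rian, a long noncoding RNA that also hosts small nucleolar RNAs. Its signals in replicates 1 and 2 were 30.4 and 32.2 in CD8+ DC and 21.0 and 21.1 in CD4+ DC, with detection on all 4. In CD4-CD8- DC they were 10.7 and 11.0, and in Gr1+ monocytes 10.9 and 15.3, the last of them detected. In PDC they were 1.71 and 12.9, in MP 7.8 and 6.64, in MDP 4.67 and 3.28, and in CDP 5.6 and 4.78, all without detection. By these unscaled signals the 2 CD8+ DC arrays lay above all others and the 2 CD4+ DC arrays came next. The replicates of each spleen population differed by less than the populations did. On the scaled log2 level, Gr1+ monocytes replicate 2 (-4.97) lay between CD4+ DC replicate 1 (-5.20) and replicate 2 (-4.96).

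Within spleen, CD8+ DC and CD4+ DC were both measured on both arrays, and CD8+ DC was higher by 1.51 (replicate 1) and 1.11 (replicate 2) on the scaled log2 level, a mean of 2.48-fold. CD4-CD8- DC were not above background on either array, so under the same scaling CD8+ DC were at least 2.54-fold higher. Both folds belong to this scaling alone. Before scaling CD8+ DC, at 30.4 and 32.2, lay closer to CD4+ DC, at 21 and 21.1. In the fitted contrast with the mean of both other spleen populations, 1 of the 4 arrays of that side was at the floor. There miR-370 was higher in CD8+ DC by a log2 difference of 1.51 ± 0.20 (SE, adjusted p = 0.000881 with limma). It was 1.56 within design 1 and 1.46 within design 2. Of all tested miRNAs, 33.1% were called here, 25.7% as higher. As miR-370 was tested only through CD4+ DC and CD8+ DC, where it was high, its p-values here and below are no independent support. The difference was 0.79 (adjusted p = 0.028, limma) when scaled to all miRNAs and 1.09 (adjusted p = 0.00899, limma) after quantile normalization, so its direction held under these 3 scalings. After normexp background correction it was 0.53 with an adjusted p of 0.581. On the scaled log2 level CD8+ DC stood at -3.77 ± 0.12, CD4+ DC at -5.08 ± 0.17 and CD4-CD8- DC at -5.48 ± 0.25 (SD, n = 2), the last close to the floor.

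The other called contrasts of miR-370 had no detection at all on the progenitor side, so at most a bound applies. Spleen DC were detected on 4 of 6 arrays. Their mean without a floor was 1.27-fold above the bound of CDP. As that mean took the undetected CD4-CD8- DC arrays at their own signals, 1.27 is not a secure minimum. In each bound the dim side was taken, per array, as the higher of its own signal and the lowest signal detected on that array. The fitted log2 difference of spleen DC from CDP was 0.76 ± 0.18 (SE, adjusted p = 0.00609 with limma). Of all tested miRNAs, 56% were called there, 36.6% as higher. The difference was 0.62 without CDP replicate 2, and 0.58 (adjusted p = 0.0598, limma) when scaled to all miRNAs. For the 5 differentiated against the 3 progenitor populations, the fitted log2 difference was 0.54 ± 0.12 (SE, adjusted p = 0.00301 with limma). The bound gave no fold, and 63.4% of all tested miRNAs were called in this contrast, 38.9% as higher. The size of these 2 differences depended on the floor and on the probes: without a floor they were 1.81 and 1.08, with the brightest probe 0.40 and 0.26, and after normexp correction 0.18 and 0.25, the last pair not called. The F test gave an adjusted p of 0.000879 (limma).

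Markers of other cells were read beside these values. The 3 myeloid miRNAs (miR-223, miR-142-3p, miR-142-5p) were detected on all 16 arrays. Of the erythroid markers, miR-451 and miR-486 were detected on some arrays and miR-144 on none. Their summed signal was 194 to 649 in CD4+ DC and CD8+ DC, 92.8 to 113 in CD4-CD8- DC, 53.5 and 314 in PDC, 12.3 and 21 in Gr1+ monocytes and 6.13 to 233 in the progenitors. It was thus high in both populations in which miR-370 was highest, and also in PDC replicate 2 and MP replicate 1, where miR-370 was not detected. Of the 3 lymphocyte miRNAs, miR-181a and miR-181b were detected on all 16 arrays and miR-150 on some, with summed signals of 1087 and 2609 in PDC and 174 to 838 in the other populations. The 7 stem and early progenitor miRNAs fell the other way in sum, from 803 and 1474 in MP to 50.5 and 92.1 in CD8+ DC. Of 18 miRNAs of stromal, muscle, epithelial and neural cells, 4 were detected on any array, at most 2 per array, with summed signals of -36 to 55.5. The part of any of these in the signals of miR-370 or miR-1906 was not tested.

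**Figure D4:**
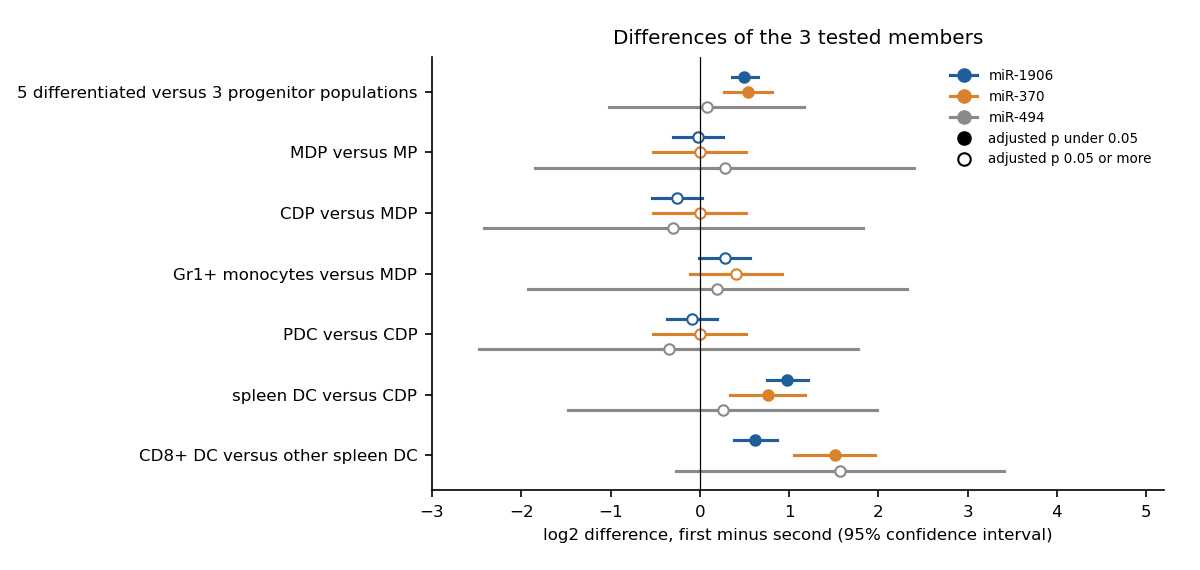
Log2 differences of the 3 tested members in 7 contrasts of population means, with 95% confidence intervals from the limma fit; filled points have an adjusted p under 0.05. miR-1906 and miR-370 are called in the same 3 contrasts, and the intervals of miR-494 span 0 in all 7.

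miR-494 was detected on every array and showed no reproducible order of populations. It lies at chr12:110953585-110953598 in the Mirg cluster. Its signals in replicates 1 and 2 were 402 and 380 in MP, 625 and 235 in MDP, and 502 and 348 in CDP. In Gr1+ monocytes they were 325 and 972, and in PDC 118 and 1340. In CD4+ DC they were 323 and 728, in CD8+ DC 1324 and 537, and in CD4-CD8- DC 281 and 460. By processed signal PDC was the lowest population on design 1 and the highest on design 2. On the scaled log2 level it was again the lowest on design 1 (-1.95), and on design 2 (0.61) it was second to Gr1+ monocytes (1.02).

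The F test of miR-494 gave an adjusted p of 0.695 (limma). The differentiated populations differed from the progenitors by 0.08 ± 0.48 (SE, adjusted p = 0.908 with limma), which was -0.73 within design 1 and 0.88 within design 2. PDC against CDP was -1.94 within design 1 and 1.24 within design 2. Even the highest contrast, CD8+ DC against the other spleen DC, was 1.57 ± 0.81 (SE, adjusted p = 0.163 with limma), with a 95% confidence interval of -0.27 to 3.41. Such an interval leaves differences of either a small or a large size possible.

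The replicate spread of miR-494 was unlike that of the other tested miRNAs. Over the 8 populations, each population giving 1 point, its scaled levels on both designs had a Pearson correlation of -0.34, against 0.94 for miR-1906 and a median of 0.90 over the 167 tested miRNAs with a value, of which 1 was lower. The points of a design share a slide and a scan. After removal of the mean offset between designs, the median absolute difference of its replicates was 1.18 on the log2 scale, the largest of 175, whereas the median miRNA had 0.17. Both of its probes showed wide ranges, 166 to 1868 and 70.6 to 779 on design 1.

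**Figure D5:**
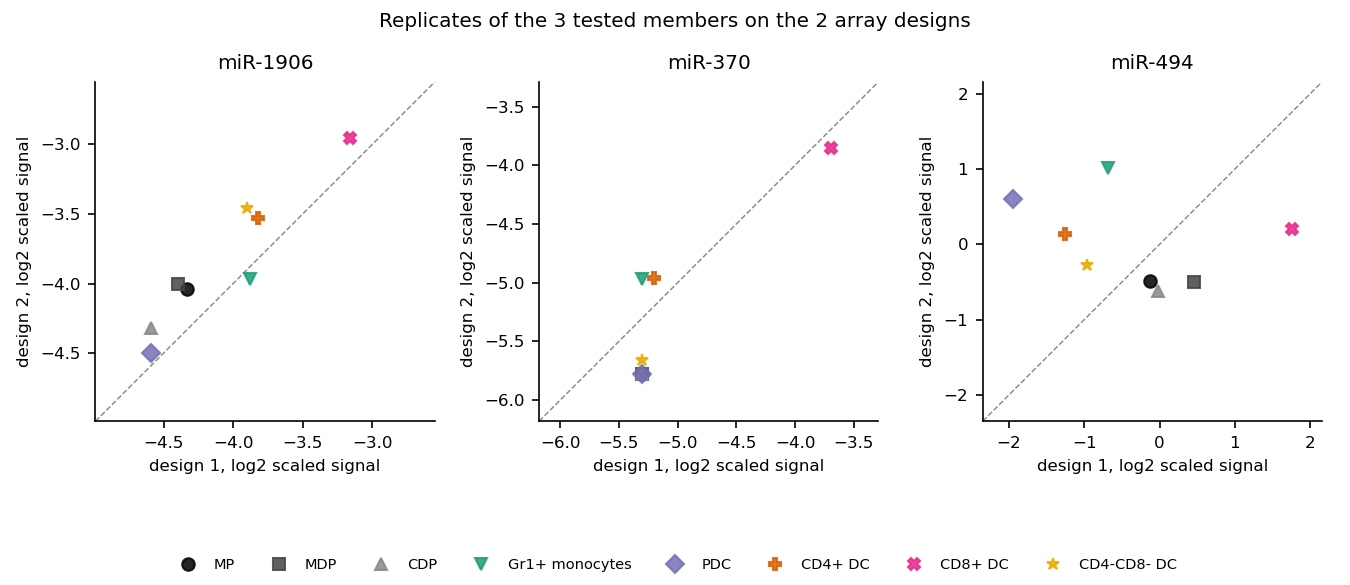
Scaled log2 signal of the 3 tested members on array design 2 against design 1, 1 symbol per population, with the line of equality dashed. The populations of miR-1906 rise along the line (Pearson 0.94, n = 8) and those of miR-494 do not (-0.34); 4 populations of miR-370 sit at the floor on both designs and overlap, so its agreement cannot be read.

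miR-668 was split by array design and not by population. It lies at chr12:110972996-110973007 in the Mirg cluster and was detected on all 8 arrays of design 2 and none of design 1. On design 2 its signals were 22.1 in MP, 23.9 in MDP, 26.2 in CDP, 18.3 in Gr1+ monocytes, 24.9 in PDC, 23.4 in CD4+ DC, 21.7 in CD8+ DC and 20.1 in CD4-CD8- DC. On design 1 they lay between -0.364 and 4.93. Its 4 probes had the same sequences on both designs, and each of them was higher on every design 2 array than on any design 1 array. The same split occurred in 3 mouse miRNAs, with miR-207 and miR-92b, and the reverse in 0. As it was never detected on both arrays of a population, miR-668 was not tested between populations. miR-409-3p, the dark member with the highest median, showed a like split without being detected, at 6.29 to 9.05 on design 2 and -2.51 to 0.464 on design 1. Among the dark members, 60 of 73 had a higher median on design 2, by 1.2 in the median.

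Scaled levels over the 16 arrays, with the mean of each design removed, were compared by Pearson correlation. Most like miR-1906 were miR-1224 (0.90) and miR-30a (0.88), and most like miR-370 were miR-138 (0.95) and miR-714 (0.90). For miR-494 they were miR-483 (0.77) and miR-760 (0.75). None of these 6 is a member. miR-370 was at the floor on most arrays, so its correlations rest mainly on the others. Within arrays the points share scale and background, so all of these correlations are descriptive.

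The miRNAs assigned to other imprinted loci by name, without a check of position, gave mixed counts. For the cluster in an intron of Sfmbt2 these were all forms of miR-297, miR-466, miR-467 and miR-669. Of them, 8 of 36 were detected on at least 1 array and miR-467f on all 16. Of all mouse miRNAs outside the Dlk1-Dio3 locus, 39.3% were detected on at least 1 array. Of Gnas and Nespas, 1 of 3 was detected, miR-296-5p, on all 16 arrays. Both Igf2 miRNAs, miR-483 and miR-483*, were detected on some arrays, but 0 of 2 from Mest (miR-335) and 0 of 2 from H19 (miR-675). These are counts only, without a test of their difference.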

How the data were processed

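RNA of 16 samples was hybridised to 1-colour Agilent miRNA arrays. The deposited scanner files hold intensity values (processed signal, background removed, linear scale). Per the file headers they came from Feature Extraction 10.7.3.1 of Agilent, whereas version 9.1 stands in the submitters' processing notes. The array number limits the precision. Outlier spots were left out, and spots, then probes, were averaged per miRNA. Signals were divided by each array's 75th percentile (factors 333 to 876), raised to a floor (the 5th percentile of detected signals, median per design, -5.30 and -5.78 on the log2 scale) and entered into limma 3.58.1 (R 4.3.3), p-values being adjusted by Benjamini-Hochberg over the 175 tested miRNAs. The fitting step was tested on simulated data.

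Same-numbered samples deviated together: over 28 pairs of populations the correlation of their deviations was 0.297 to 0.917, median 0.572, the number being the array design. The members and lists were chosen with earlier results of these data known. Every detected member, every tested member, the 3 dark members with the highest medians, miR-127 and miR-410 are named with values, a few others were chosen after their values were seen, and the rest are listed.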

Additional observations from a re-analysis of the deposited data

Results flagged for a closer look

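miR-3072*, a locus miRNA printed on array design 2 alone and so outside every comparison above, gave a signal above background in all populations. It lies at chr12:110986113-110986124, beyond the last shared member of the Mirg cluster. Its mature sequence in RefSeq (GRCm38.p6, seed in capitals) holds 77.3% G and C.
miR-3072*: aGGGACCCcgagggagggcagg
It was detected on 8 of 8 arrays with a median processed signal of 59.2. The values were 50.5 in MP, 34.8 in MDP, 44.3 in CDP, 54.5 in Gr1+ monocytes, 64 in PDC, 76.1 in CD4+ DC, 88.2 in CD8+ DC and 65.8 in CD4-CD8- DC. These signals are not scaled. Divided by each array's own scale, the log2 levels were -3.40 in MP, -3.26 in MDP, -3.60 in CDP, -3.14 in Gr1+ monocytes, -3.78 in PDC, -3.11 in CD4+ DC, -2.40 in CD8+ DC and -3.07 in CD4-CD8- DC. CD8+ DC was the highest on both scales, while PDC was above all progenitors before scaling and the lowest of the 8 after it. With 1 array per population, there is no replicate check and no test. The opposite arm, miR-3072, and miR-432, the other locus miRNAs of design 2 alone, were detected on 0 of 8 arrays.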

How the results depend on the processing

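The count of 4 detected members was 4 with any single array left out and with the brightest probe or all spots required, 9 with any 1 spot counted as enough, and 7 with the gene-level call of Feature Extraction, which added miR-134, miR-409-3p and miR-770-3p on 1 array each. With that call miR-370 was detected on 9 arrays, against 5 by the main count. Restricting the count of detected members to design 1 (3 members) or design 2 (4) was chosen after seeing the data. After normexp background correction 0 members were called in the F test and in the contrasts of differentiated populations, spleen DC and CD8+ DC. The main setting called 2 in each. Normexp was run with an added offset of 50, beside highest processed signals of 60 for miR-1906 and 32.2 for miR-370. An added constant narrows log2 differences between dim signals, and its share in the lost calls was not tested. With only the 88 miRNAs detected on all 16 arrays tested, which leaves miR-370 out, 1 was called in each. Scaled to all miRNAs, 0 were called for spleen DC against CDP and 1 each for CD8+ DC (miR-370) and PDC against CDP (miR-1906, -0.61, adjusted p = 0.0267 with limma). After quantile normalization 1 was called for CD8+ DC (miR-370) and 1 for Gr1+ monocytes against MDP (miR-1906). The causes were not tested.

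Without one array, the counts ranged from 0 to 1 for Gr1+ monocytes against MDP (1 without Gr1+ monocytes replicate 1 or replicate 2) and from 1 to 2 for spleen DC against CDP (1 without CDP replicate 2). The difference of miR-1906 for CD8+ DC turned to -0.12 when scaled to all miRNAs. That of miR-494 between differentiated and progenitor populations turned to -0.15 when scaled to all miRNAs, -0.04 after quantile normalization and -0.01 with the brightest probe; with one array left out it ran from -0.18 to 0.33, and for PDC against CDP from -1.61 to 0.91. Removing the filter on dim miRNAs gave 209 miRNAs with any value over the floor and changed no count, nor did the series tables or the absence of a floor. Without the replicate block, which here is the array design, 2 members were called in each of the same 4 tests and 0 in the other 4. Signals under the dimmest detected probe of 11.8 to 20.7 carry no information on levels, and with 2 arrays per population small differences cannot be seen.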
